A study of Homo sapiens with 8 samples.

Results

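The 35 genes described here encode enzymes and regulators of cholesterol and fatty acid synthesis. Their symbols were listed by role in the pathway and looked up in the deposited count table, which held all 35 among 38173 symbols. All 35 had enough reads to be tested, of 16647 genes tested in all. They fall into 8 enzymes of the mevalonate segment, 10 enzymes that turn its product into squalene and sterols, 9 enzymes that make and modify fatty acids, and 8 regulators and sterol-handling proteins. The cells were MH7A, an immortalised human synovial line derived from rheumatoid arthritis tissue, and every library came from this line. Poly(A) RNA was sequenced from 4 groups of 2 libraries. These were mock cells (DMSO by label, normal incubation by the design text), cells given tumour necrosis factor (TNF) for 24 h, cells given TNF together with Tubuloside B (Tub B, a phenylethanoid glycoside) at 60 µM for 24 h, and cells given 60 µM Tub B alone for 24 h. The amount of TNF is 20 ng per volume, but the labels and the design text differ on whether the volume is a microlitre or a millilitre, and the unit is cut short in the label for TNF + Tub B.

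As background, cells build cholesterol from acetyl-CoA through mevalonate, isoprenoid units, squalene and lanosterol. Transcription of most of these enzymes is driven by SREBP-2, the product of SREBF2, while SREBP-1, the product of SREBF1, acts more on fatty acid enzymes. SCAP carries both SREBPs from the endoplasmic reticulum to the Golgi, where they are cut and released, and INSIG1 and INSIG2 hold SCAP back when sterols are plentiful. NR1H3 encodes the oxysterol receptor LXRα. For sterols only, LXRα works in the opposite sense, by inducing sterol export genes and MYLIP, a ligase that marks lipoprotein receptors for breakdown.

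Libraries held 14073186 to 31937334 counts. Expression levels below are in CPM (counts scaled to a common library size), with SD over the 2 libraries, and differences are log2 fold changes ± SE. A gene was called where edgeR's quasi-likelihood test gave a Benjamini-Hochberg adjusted p below 0.05 over all genes tested. Nothing in the labels tells whether paired libraries stem from different cultures, and the p-values therefore rest on a spread between samples that may be technical. The mock libraries differed from each other more than the libraries of any other group, with a chi-square per degree of freedom of 5.19 against 2.20 to 2.62. The summed level of 9 synovial fibroblast markers was 22317 and 26578 CPM in mock, 22086 and 23029 with TNF, 17031 and 17303 with TNF + Tub B, and 24776 and 23328 with Tub B, lowest in the TNF + Tub B libraries. COL1A1, COL1A2 and VIM made up most of each sum (6962, 10403 and 2945 CPM in mock replicate 1). Among the 9 markers, PRG4 had 2 to 9 counts per library and was not tested. Summed counts were at most 82 for 6 leukocyte markers, 24 for 3 endothelial, 59 for 3 epithelial, 10 for 3 adipocyte and 9 for 3 hepatocyte markers. RNA was pooled over many cells, so a change in RNA per cell and a change in the cells present cannot be told apart.

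**Figure D1:**
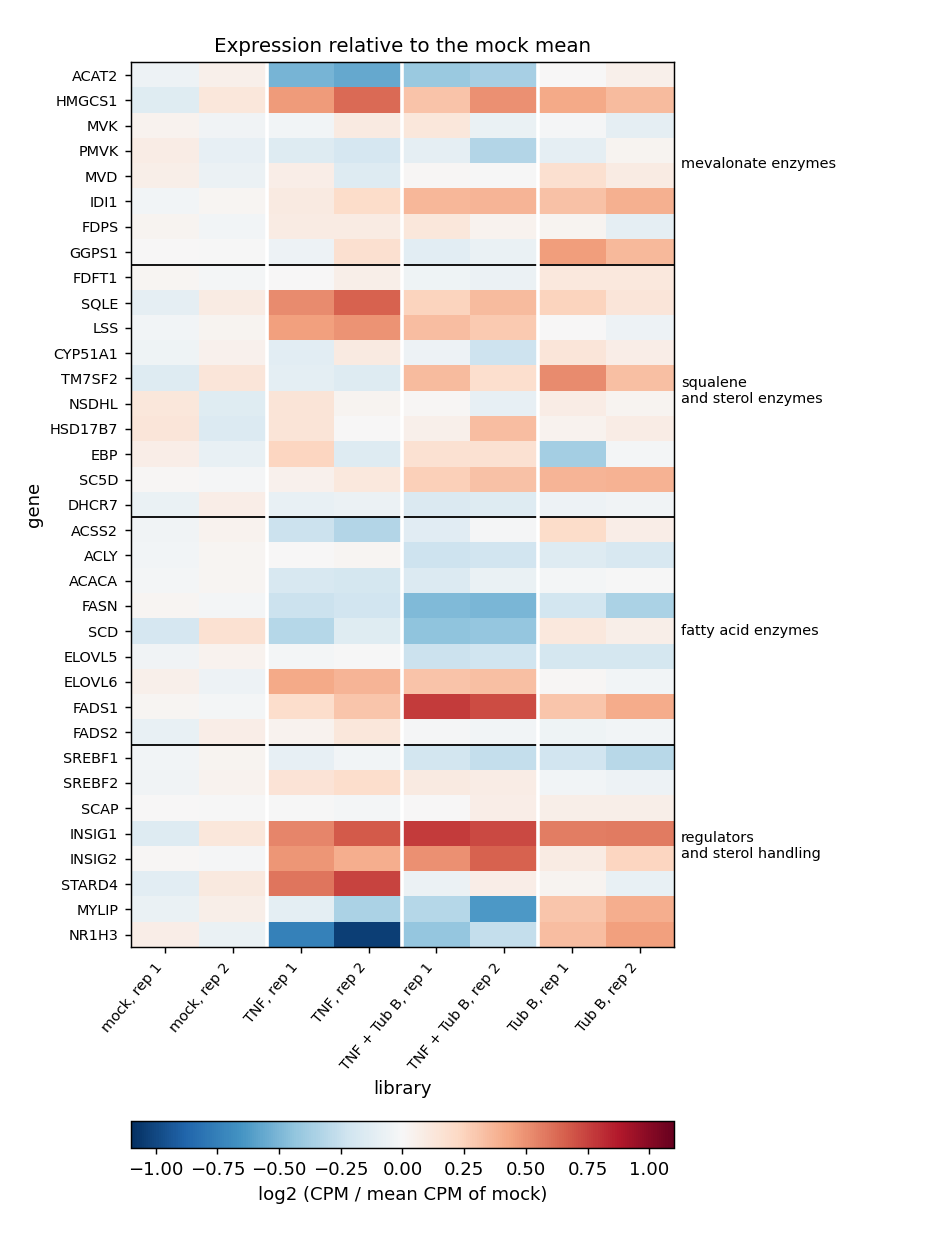
Expression of the 35 genes (rows, grouped by role) in each of the 8 libraries (columns), coloured by log2 of CPM over the mean CPM of the mock libraries. INSIG1 was above its mock mean in all 6 treated libraries, STARD4 stood out in the TNF libraries only, and FASN was lowest in the TNF + Tub B libraries.

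The response to TNF was read by comparing TNF with mock libraries. TNF raised a few cholesterol genes, HMGCS1, SQLE, LSS, INSIG1 and STARD4, by 1.39-fold to 1.59-fold, while most enzymes of the same route did not pass. Of the 35 genes, 9 were higher, 6 lower and 20 were not called, so 42.9% were called where 30.5% of all tested genes were (17.2% higher and 13.3% lower). Among the 18 cholesterol enzymes 3 were higher and 1 lower, with a median log2 fold change of 0.06. Neither share was larger than that of all tested genes. Among the 9 fatty acid enzymes 2 were higher and 4 lower (median −0.01), and among the 8 regulators 4 were higher and 1 lower (median 0.08), beside a median of −0.003 over all genes tested. Scaling by library totals gave 8 higher and 8 lower among the 35. Of the 8 fibroblast markers tested, 3 were higher and 3 lower with TNF. Among them were PDPN (1.28 ± 0.13) and PDGFRB (−0.60 ± 0.06), and their part in the results was not tested.

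HMGCS1, the cytosolic HMG-CoA synthase that opens the mevalonate segment, had 26.5 and 31.7 CPM in mock libraries, 40.4 and 45.0 with TNF, 36.3 and 41.3 with TNF + Tub B, and 39.0 and 37.2 with Tub B. Every treated library was above both mock libraries. The TNF effect was 0.56 ± 0.09 (adjusted p = 5.74e-05 in edgeR). SQLE, squalene epoxidase, the first oxygen-dependent step of sterol synthesis, had 40.9 and 46.5 CPM in mock, 62.8 and 68.5 with TNF, 51.8 and 55.6 with TNF + Tub B, and 51.7 and 48.0 with Tub B. The TNF libraries were the highest, and mock the lowest, with no overlap between these groups (0.59 ± 0.07, adjusted p = 2.52e-06). LSS, which closes the sterol rings to form lanosterol, rose from 154 ± 4.35 to 213 ± 4.76 CPM (SD, n = 2), a difference of 0.47 ± 0.05 (adjusted p = 2.34e-07 in edgeR). These calls held in all 15 alternative settings. In GENCODE v29, HMGCS1 shares 703 exon bases with AC114947.2 on the opposite strand. LSS shares 448 with AP001468.1 and 122 with AP001469.1, also on the opposite strand. The part of shared reads in the HMGCS1 and LSS values was not tested.

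ACAT2, the thiolase that makes acetoacetyl-CoA for HMGCS1, moved the other way. It had 18.3 and 19.8 CPM in mock and 13.4 and 12.9 with TNF, then 14.3 and 14.8 with TNF + Tub B, and 19.1 and 19.8 with Tub B. Both groups with TNF were below both groups without it, and the TNF effect was −0.53 ± 0.08 (adjusted p = 8.76e-05 in edgeR). Exons of ACAT2 share 1106 bases with SOD2 on the opposite strand in GENCODE v29, and the libraries do not keep strand. ACAT2 exons also share 1458 bases with SOD2-OT1 and 397 with TCP1 on that opposite strand. SOD2 rose by 4.44 ± 0.05 with TNF, while TCP1 differed by −0.15 ± 0.05 (adjusted p = 0.0206 in edgeR). The part of these genes in the ACAT2 value was not tested. The other 6 mevalonate enzymes, from MVK to GGPS1, had TNF effects between −0.17 and 0.15 and were not called.

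Regulators changed with TNF as well. INSIG1, which retains SCAP and is itself an SREBP target, had 27.6 and 33.3 CPM in mock, 44.2 and 48.5 with TNF, 52.0 and 50.4 with TNF + Tub B, and 45.0 and 45.4 with Tub B. All 6 treated libraries were above both mock libraries, and the TNF effect was 0.62 ± 0.08 (adjusted p = 6.20e-06 in edgeR). Its relative INSIG2 rose from 14.3 ± 0.235 to 19.4 ± 0.797 CPM (0.45 ± 0.09, adjusted p = 0.000675). STARD4, which carries cholesterol through the cytosol, had 32.6 and 38.0 CPM in mock, 53.0 and 58.9 with TNF, 33.7 and 37.2 with TNF + Tub B, and 36.1 and 33.4 with Tub B. Only the TNF libraries stood above the rest (0.67 ± 0.08, adjusted p = 2.56e-06). STARD4-AS1, which shares 124 exon bases with STARD4 on the other strand, differed by −0.01 ± 0.13 between TNF and mock.

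SREBF2 rose slightly with TNF, from 117 ± 4.19 to 132 ± 2.48 CPM (0.17 ± 0.05, adjusted p = 0.00749 in edgeR). That call was lost with library totals (0.10, adjusted p = 0.108), with upper-quartile scaling (0.11, adjusted p = 0.0854), when mock replicate 1 was left out (0.13, adjusted p = 0.0778) or TNF replicate 2 (0.15, adjusted p = 0.0819). SREBF1 (−0.06 ± 0.05) and SCAP (−0.01 ± 0.05) were not called. NR1H3 had 5.05 and 4.57 CPM in mock, 2.88 and 2.34 with TNF, 3.58 and 4.02 with TNF + Tub B, and 6.07 and 6.59 with Tub B. It fell with TNF (−0.86 ± 0.17, adjusted p = 0.000659), the largest decrease among the 35 genes. Its level was highest with Tub B alone, but that difference from mock was not called. NR1H3 shares 189 exon bases with ACP2 on the opposite strand. ACP2 rose by 0.24 ± 0.06 with TNF, and its part in the NR1H3 values was not tested.

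Of the fatty acid enzymes, ACSS2, ACACA, FASN and SCD were called lower with TNF, and ELOVL6 and FADS1 higher. ACSS2 and ACACA, which supply acetyl-CoA and malonyl-CoA, fell by 0.27 ± 0.08 and 0.18 ± 0.05 on the log2 scale (adjusted p = 0.0114 and 0.00954 in edgeR). FASN, the synthase that builds palmitate, fell from 547 ± 10.4 to 469 ± 6.08 CPM (−0.22 ± 0.05, adjusted p = 0.00134). ELOVL6, which lengthens palmitate, rose from 15.2 ± 0.781 to 19.9 ± 0.359 CPM (0.39 ± 0.08, adjusted p = 0.00106). FADS1, the delta-5 desaturase of polyunsaturated fatty acids, rose from 69.1 ± 1.41 to 82.1 ± 4.23 CPM (0.24 ± 0.05, adjusted p = 0.00188). ACLY, ELOVL5 and FADS2 lay between −0.01 and 0.09 and were not called. The ACSS2 call was lost without TNF replicate 2 (−0.23, adjusted p = 0.0933), and the ACACA call without mock replicate 2 (adjusted p = 0.0529), TNF replicate 1 (0.0614) or TNF replicate 2 (0.0709).

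SCD, the stearoyl-CoA desaturase that makes oleate, had 115 and 147 CPM in mock, 106 and 119.5 with TNF, 96.5 and 98.1 with TNF + Tub B, and 142 and 138 with Tub B. The mock libraries spanned most of this range and overlapped the TNF libraries, so the TNF decrease (−0.22 ± 0.08, adjusted p = 0.0497 in edgeR) was not larger than the spread between replicates. The call was lost in 8 of 15 alternative settings, and without mock replicate 2 the difference was −0.04 (adjusted p = 0.699). It was also lost without TNF replicate 1 (−0.13, adjusted p = 0.426), without either TNF + Tub B library and without either Tub B library (−0.22 each time, adjusted p = 0.0650 to 0.0881).

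**Figure D2:**
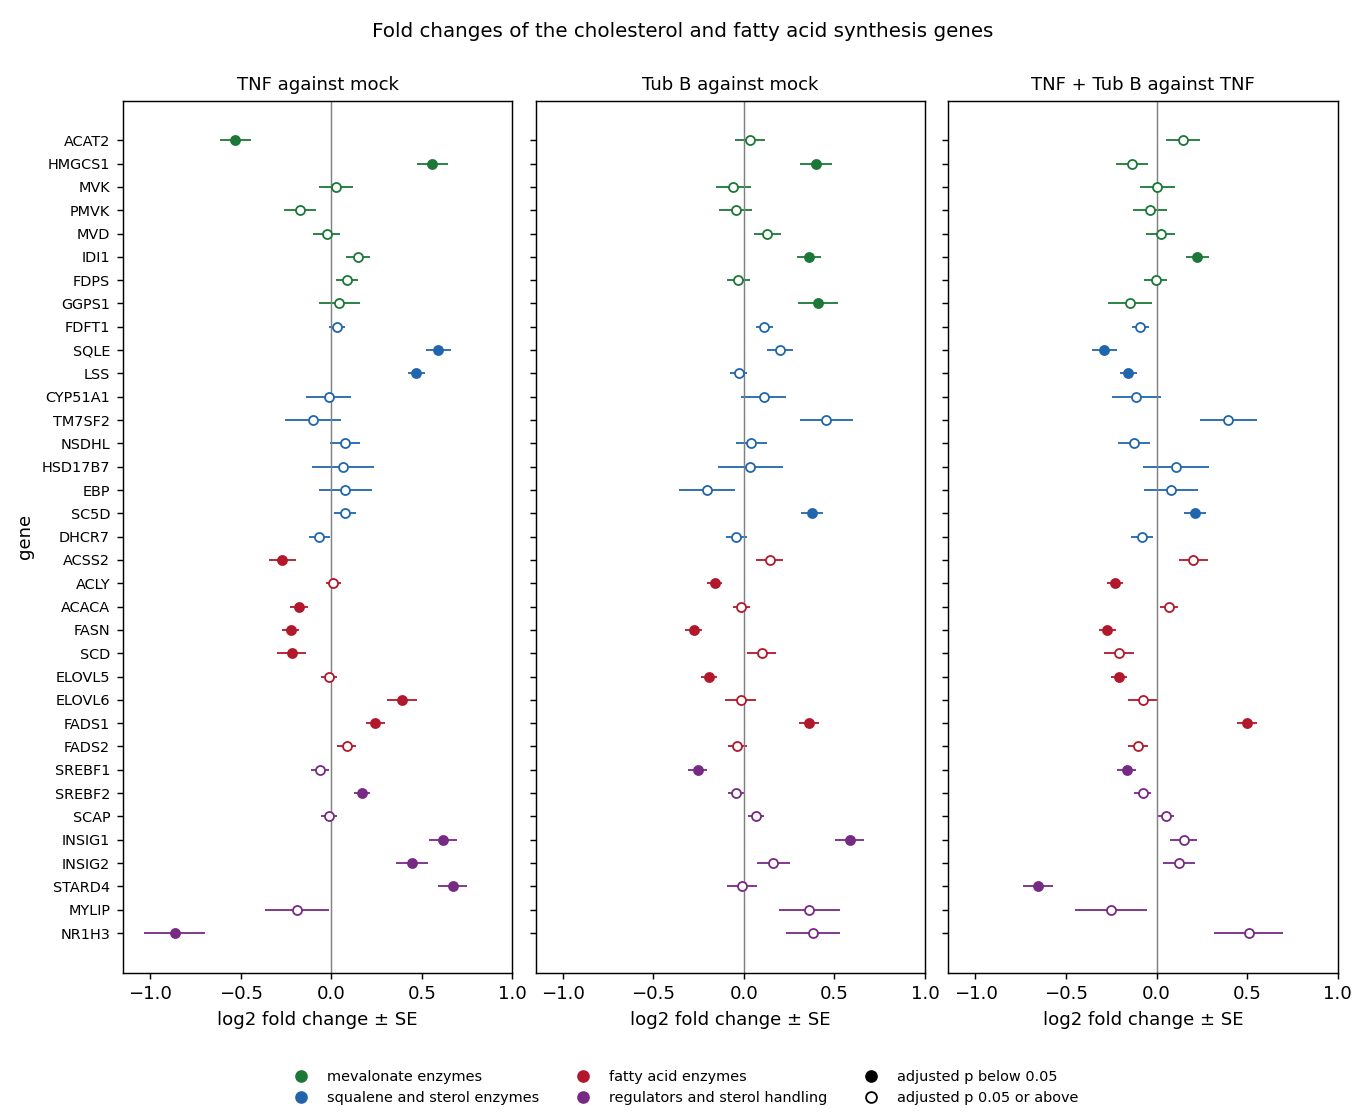
Log2 fold change (horizontal axis, with SE bars) of each of the 35 genes (vertical axis) for TNF against mock, Tub B against mock and TNF + Tub B against TNF, coloured by role, with filled points for adjusted p below 0.05 in edgeR. NR1H3 lies farthest left with TNF, INSIG1 farthest right with Tub B, and STARD4 farthest left when Tub B was added to TNF.

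The effect of Tub B alone was read against the same mock libraries. INSIG1, HMGCS1, GGPS1, IDI1, SC5D and FADS1 rose, and FASN, ELOVL5, ACLY and SREBF1 fell. Of the 35 genes, 6 were higher, 4 lower and 25 not called, or 28.6% called where 12.7% of all tested genes were (4.83% higher and 7.91% lower). The 18 cholesterol enzymes had 4 higher and 0 lower (median 0.08), and the 9 fatty acid enzymes 1 higher and 3 lower (median −0.02), beside a median of 0.003 over all genes. Library totals gave 9 higher and 3 lower among the 35, with 1 higher and 2 lower among the fatty acid enzymes (median 0.04), and leaving out either Tub B library left 6 called. Of the 8 fibroblast markers tested, 0 were higher and 3 lower with Tub B.

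INSIG1 rose most (0.58 ± 0.08, adjusted p = 8.27e-05 in edgeR), with the library values given above. IDI1, the isomerase that supplies the isoprenoid starter unit, rose from 33.5 ± 0.851 to 42.9 ± 1.33 CPM (0.36 ± 0.06, adjusted p = 0.00114). SC5D, a desaturase late in the sterol route, rose from 37.1 ± 0.327 to 48.1 ± 0.255 CPM (0.38 ± 0.06, adjusted p = 0.000396). These 3 calls held in all 15 settings.

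HMGCS1 rose by 0.40 ± 0.09 with Tub B (adjusted p = 0.00532 in edgeR), a call lost without mock replicate 1 (0.26, adjusted p = 0.0924) or Tub B replicate 1 (0.36, adjusted p = 0.0725). GGPS1, which makes the geranylgeranyl donor for protein prenylation, had 8.96 and 8.85 CPM in mock, 8.56 and 10.1 with TNF, 8.21 and 8.45 with TNF + Tub B, and 12.2 and 11.4 with Tub B. Only the Tub B libraries stood apart (0.41 ± 0.11 against mock, adjusted p = 0.0211). The GGPS1 call was lost in DESeq2 (adjusted p = 0.117) and without mock replicate 1 (0.0813), Tub B replicate 1 (0.148) or Tub B replicate 2 (0.0770). GGPS1 shares 350 exon bases with TBCE and 138 with ARID4B, so its own share of reads is uncertain. ARID4B rose by 0.20 ± 0.06 with Tub B (adjusted p = 0.0470 in edgeR), and its part in the GGPS1 values was not tested. SQLE (0.20 ± 0.07, adjusted p = 0.0789) and TM7SF2, a sterol reductase (0.45 ± 0.15, adjusted p = 0.0505), were not called, and LSS differed by −0.03 ± 0.05.

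FASN fell to 452 ± 32.4 CPM with Tub B alone (−0.28 ± 0.05, adjusted p = 0.000813 in edgeR). ELOVL5, an elongase of polyunsaturated fatty acids, fell by 0.19 ± 0.04 (adjusted p = 0.00736) and ACLY, which cuts citrate to cytosolic acetyl-CoA, by 0.16 ± 0.04 (adjusted p = 0.0157). SREBF1 fell from 89.3 ± 2.93 to 74.7 ± 3.21 CPM (−0.25 ± 0.05, adjusted p = 0.00340). FADS1 went against the other called fatty acid enzymes and rose to 88.7 ± 4.47 CPM (0.36 ± 0.05, adjusted p = 0.000233). The FASN and FADS1 calls held in all 15 settings. The other calls did not hold in all settings. ACLY was lost with library totals (−0.10, adjusted p = 0.103) and with only the groups compared (−0.16, adjusted p = 0.0600). Without Tub B replicate 2, adjusted p was 0.0749 for ELOVL5, 0.136 for ACLY and 0.0807 for SREBF1. Without Tub B replicate 1 it was 0.0521 for ELOVL5 and 0.0547 for ACLY, and without mock replicate 2 it was 0.0579 for ACLY.

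Setting TNF + Tub B libraries beside TNF libraries showed what Tub B changed in stimulated cells. STARD4 lost its TNF increase, FADS1 rose further and FASN fell further. Of the 35 genes, 3 were higher, 7 lower and 25 not called, or 28.6% called beside 20.2% of all genes (7.11% higher and 13.1% lower). This split followed the scaling, with 10 higher and 2 lower by library totals and 5 of each by upper-quartile scaling. The count fell to 6 when any 1 of the 4 libraries compared was left out, and to 6 in DESeq2. The 18 cholesterol enzymes had 2 higher and 2 lower (median −0.02), and the 9 fatty acid enzymes 1 higher and 3 lower (median −0.10), beside a median of −0.005 over all genes. The TNF libraries serve both here and in the TNF comparison with mock, so the comparisons are not independent. Of the 8 fibroblast markers tested, 7 were lower here as well, among them COL1A1 (−0.55 ± 0.08) and COL3A1 (−0.63 ± 0.08), and their part in the results was not tested.

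STARD4 fell by 0.66 ± 0.08 on the log2 scale (adjusted p = 1.10e-05 in edgeR), to the level of the mock libraries (35.5 ± 2.49 against 35.3 ± 3.85 CPM, SD, n = 2). STARD4-AS1 fell as well (−0.65 ± 0.14, adjusted p = 0.00324), and its part in the STARD4 value was not tested. FADS1 reached 116 ± 2.85 CPM, its highest level of the 4 groups (0.50 ± 0.05 above TNF, adjusted p = 1.68e-06). FASN fell to 388 ± 4.24 CPM, its lowest level (−0.27 ± 0.05, adjusted p = 0.000468). These 3 calls held in all 15 settings. FADS1 shares 142 exon bases with FADS2, the delta-6 desaturase gene, on the other strand, and the part of shared reads in the FADS1 values was not tested. FADS2 differed by −0.10 ± 0.05 here and was not called.

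ACLY (−0.23 ± 0.04, adjusted p = 0.000594 in edgeR) and ELOVL5 (−0.21 ± 0.05, adjusted p = 0.00265) fell too, and both calls were lost only with library totals (adjusted p = 0.0526 and 0.150). SQLE was lower by −0.29 ± 0.07 (adjusted p = 0.00655) but stayed above mock, and the call was lost without TNF replicate 2 (−0.23, adjusted p = 0.0944), on omitting TNF + Tub B replicate 1 (−0.24, adjusted p = 0.0962), or under scaling by totals (−0.17, adjusted p = 0.0722). LSS (−0.16 ± 0.05), SREBF1 (−0.16 ± 0.05), IDI1 (0.22 ± 0.06) and SC5D (0.21 ± 0.06) passed with adjusted p between 0.0194 and 0.0367, and each was lost in 5 to 7 of 15 settings. For LSS and SREBF1 these included library totals, where both differences shrank to −0.04, and the loss of TNF replicate 1 or 2 or TNF + Tub B replicate 2. IDI1 and SC5D were lost without TNF replicate 1 or either TNF + Tub B library, and SREBF1 also without TNF + Tub B replicate 1, while SC5D was lost as well without TNF replicate 2. HMGCS1 (−0.14 ± 0.09) and INSIG1 (0.15 ± 0.08) were not called, so neither was shown to move when Tub B joined TNF.

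**Figure D3:**
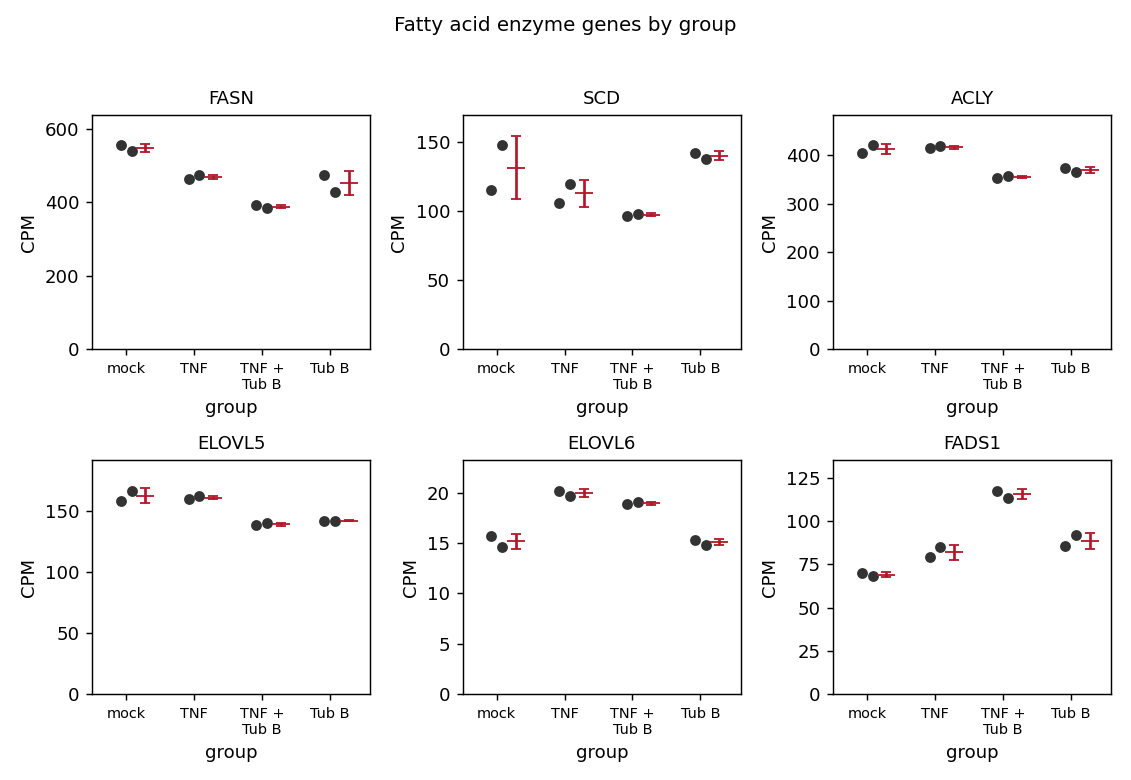
Levels in CPM (vertical axis, from 0) of 6 fatty acid enzyme genes in the 4 groups, with a point per library and the mean ± SD beside it in red. FADS1 is highest and FASN lowest in the TNF + Tub B libraries, whereas ELOVL6 is higher in both groups with TNF.

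TNF + Tub B libraries were also compared with Tub B libraries, to read the TNF response in treated cells. Of the 35 genes, 5 were higher, 7 lower and 23 not called, or 34.3% called beside 26.4% of all genes (14.3% higher and 12.1% lower). Of the 8 fibroblast markers, 2 were higher and 5 lower in the same comparison. Upper-quartile scaling gave 4 higher and 9 lower. LSS (0.34 ± 0.05, adjusted p = 2.07e-05 in edgeR), FADS1 (0.38 ± 0.05, adjusted p = 2.55e-05), ELOVL6 (0.33 ± 0.09, adjusted p = 0.00839) and INSIG2 (0.41 ± 0.09, adjusted p = 0.00254) were higher with TNF here as well as without Tub B. The ELOVL6 call was lost in DESeq2 (adjusted p = 0.0556) and without TNF + Tub B replicate 1 (0.0522), TNF + Tub B replicate 2 (0.0525) or Tub B replicate 2 (0.0603), and that of INSIG2 without Tub B replicate 1 (0.0537). SREBF2 passed narrowly (0.14 ± 0.05, adjusted p = 0.0405), and it no longer did so in 10 of 15 settings, including the omission of any TNF, TNF + Tub B or Tub B library (0.12 to 0.14, adjusted p = 0.0620 to 0.212). HMGCS1 (0.02 ± 0.09), SQLE (0.10 ± 0.07), INSIG1 (0.18 ± 0.08) and STARD4 (0.03 ± 0.09) were not called.

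Several genes were lower with TNF in Tub B treated cells. MYLIP had 3.48 and 3.83 CPM in mock, 3.40 and 2.87 with TNF, 2.95 and 2.36 with TNF + Tub B, and 4.53 and 4.81 with Tub B. Its TNF + Tub B libraries were below both Tub B libraries (−0.80 ± 0.19, adjusted p = 0.00438 in edgeR). NR1H3, whose product induces MYLIP, fell by 0.74 ± 0.17 (adjusted p = 0.00283), and SCD by 0.52 ± 0.08 (adjusted p = 0.000118). GGPS1 (−0.51 ± 0.12, adjusted p = 0.00379) and ACAT2 (−0.42 ± 0.09, adjusted p = 0.00169) were lower by similar amounts. These 5 calls held in all 15 settings. FASN was lower by −0.22 ± 0.05 (adjusted p = 0.00213), a call that missed the threshold without Tub B replicate 1 (−0.15, adjusted p = 0.0507). FDFT1, which makes squalene, was lower by −0.17 ± 0.05 (adjusted p = 0.0126), and the call failed in DESeq2 and without any 1 of the 4 libraries compared (−0.19 to −0.17, adjusted p = 0.0513 to 0.0667).

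Whether Tub B altered the TNF response was tested as an interaction, the TNF effect with Tub B minus that without it. Of the 35 genes 4 were called, all with a smaller TNF increase under Tub B, or 11.4% beside 4.23% of all genes (1.04% higher and 3.2% lower). Of the 8 fibroblast markers, 3 were called, all lower (COL1A1, COL1A2 and COL3A1, −0.55 to −0.39), and their part in the results was not tested. STARD4 differed by −0.65 ± 0.12 (adjusted p = 0.00279 in edgeR), HMGCS1 by −0.54 ± 0.12 (adjusted p = 0.0167), SQLE by −0.49 ± 0.10 (adjusted p = 0.00792) and INSIG1 by −0.43 ± 0.11 (adjusted p = 0.0302). The 4 genes reached this by different levels. STARD4 was at the mock level in both groups with Tub B, whereas INSIG1 and HMGCS1 were above mock with Tub B alone. Adding TNF to Tub B gave no called difference in either gene. Both INSIG1 libraries were nevertheless higher with TNF + Tub B (52.0 and 50.4 CPM) than with Tub B (45.0 and 45.4 CPM). No fatty acid enzyme was called, and their interaction values ran from −0.31 for SCD to 0.14 for FADS1. LSS, which had a TNF effect of 0.47 without and 0.34 with Tub B, was not called either (−0.13 ± 0.07, adjusted p = 0.359). Nor was GGPS1, although it had the lowest interaction value of the mevalonate enzymes (−0.55).

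The count fell to 1 without TNF replicate 2, TNF + Tub B replicate 1 or Tub B replicate 1, and to 2 without mock replicate 1 or Tub B replicate 2. Of these 4 calls, that of STARD4 held in all 14 settings tried, with values from −0.75 to −0.53. SQLE was lost without TNF replicate 2 (−0.42, adjusted p = 0.0616), TNF + Tub B replicate 1 (−0.44, adjusted p = 0.0676) or Tub B replicate 1 (−0.44, adjusted p = 0.0821). HMGCS1 was lost without mock replicate 1, TNF replicate 2, TNF + Tub B replicate 1 or either Tub B library (−0.57 to −0.40, adjusted p = 0.0583 to 0.130). INSIG1 was lost without mock replicate 1, TNF replicate 2, either TNF + Tub B library or either Tub B library (−0.46 to −0.29, adjusted p = 0.0864 to 0.188), and also in DESeq2 and with library totals.

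**Figure D4:**
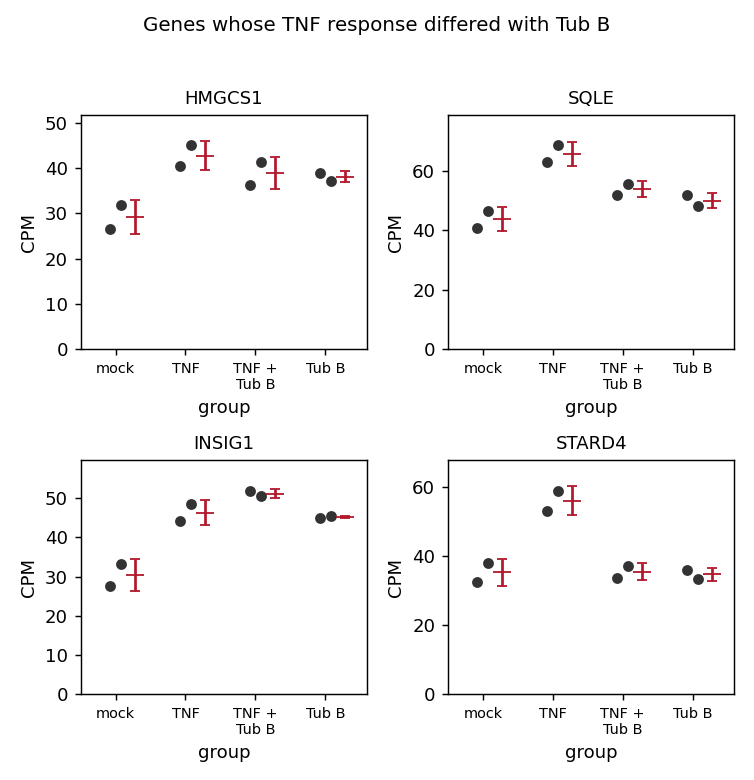
Levels in CPM (vertical axis, from 0) of HMGCS1, SQLE, INSIG1 and STARD4 in the 4 groups, with a point per library and the mean ± SD beside it in red. TNF libraries are above mock for all 4 genes. With TNF + Tub B, HMGCS1 and STARD4 overlap the Tub B libraries. SQLE and INSIG1 lie above them, by differences that were not called.

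Promoters are shown for some of the genes called higher with TNF, to let their known type of control element be read beside the values. Promoter sequences from RefSeq on GRCh38.p14 were matched for 31 of the 35 genes, each window running from 250 bases before the gene start to 50 after it. The sterol regulatory element was searched as TCACNCCAC, the CCAAT box bound by NF-Y as ATTGG, and the Sp1 GC box as GGGCGG, each on both strands, and matches to different motifs were allowed to overlap. Below are the 250 bases before the start of SREBF2 (chr22:41832855-41833104, plus strand), HMGCS1 (chr5:43313413-43313662, minus strand, the more upstream of its starts), INSIG1 (chr7:155297628-155297877, plus strand) and STARD4 (chr5:111512536-111512785, minus strand). They read 5′ to 3′ on the gene's strand, with matches to the sterol regulatory element and to ATTGG or its reverse complement CCAAT in capitals.
SREBF2: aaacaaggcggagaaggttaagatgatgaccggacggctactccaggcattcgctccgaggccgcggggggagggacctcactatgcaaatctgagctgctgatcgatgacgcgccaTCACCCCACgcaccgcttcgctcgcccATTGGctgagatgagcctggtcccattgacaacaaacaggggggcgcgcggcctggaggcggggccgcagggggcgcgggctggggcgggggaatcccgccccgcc
HMGCS1: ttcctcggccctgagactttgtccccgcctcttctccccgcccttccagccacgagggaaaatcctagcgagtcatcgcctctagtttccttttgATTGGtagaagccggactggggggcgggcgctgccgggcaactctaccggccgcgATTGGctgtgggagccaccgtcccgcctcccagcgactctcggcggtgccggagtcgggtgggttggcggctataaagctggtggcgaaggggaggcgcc
INSIG1: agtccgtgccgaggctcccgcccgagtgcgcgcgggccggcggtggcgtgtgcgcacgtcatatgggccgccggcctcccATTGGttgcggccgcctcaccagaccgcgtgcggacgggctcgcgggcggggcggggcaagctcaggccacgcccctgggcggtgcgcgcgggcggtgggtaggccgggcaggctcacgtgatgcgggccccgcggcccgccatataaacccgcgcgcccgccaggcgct
STARD4: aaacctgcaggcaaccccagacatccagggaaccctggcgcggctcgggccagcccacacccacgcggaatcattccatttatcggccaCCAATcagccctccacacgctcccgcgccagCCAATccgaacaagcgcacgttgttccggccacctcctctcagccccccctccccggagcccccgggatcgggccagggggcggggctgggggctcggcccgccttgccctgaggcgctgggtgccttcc

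SREBF2 alone among the 31 genes held TCACNCCAC, beside 1.39% of the 27305 genes with a window. Its match begins 133 bases before the gene start, and its ATTGG begins 106 bases before the start. HMGCS1 holds ATTGG from 155 and from 100 bases before its start, INSIG1 from 170, and STARD4 holds CCAAT from 161 and from 130. ATTGG on either strand was in 24 of the 31 genes (77.4%) and in 39.7% of all genes. It was in 13 of 15 cholesterol enzymes (86.7%) and in 6 of 8 fatty acid enzymes. GGGCGG was in 29 of 31 (93.5%) and in 48.3% of all genes. These shares are not fully alike, since a gene counted if any of its windows matched. The 31 genes had 47 windows, and the 27305 genes had 35116. The 27305 genes were also not limited to genes expressed here. Among the genes higher with TNF that had a window, 5 of 8 held ATTGG. INSIG2, ELOVL6 and FADS1 did not, and their windows are not printed. The other window of HMGCS1 held none either. All printed promoters hold ATTGG, so they do not represent all genes higher with TNF. A match describes the searched letters only and shows no binding. Only exact matches within these windows were counted. A gene without a match may therefore still hold the element in other letters or elsewhere.

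Among the 35 genes, 12 were called in none of the 5 comparisons. They were MVK, PMVK, MVD and FDPS of the mevalonate segment, CYP51A1, TM7SF2, NSDHL, HSD17B7, EBP and DHCR7 of the sterol route, the desaturase gene FADS2, and SCAP. FDPS, which makes farnesyl diphosphate, ranged from 43.0 to 50.2 CPM over the libraries. DHCR7, the last reductase of the route, had effects between −0.10 and −0.04 in all 5 comparisons. CYP51A1, HSD17B7, EBP and TM7SF2 were below 9 CPM in every library, with SEs of 0.12 or more, so small changes in them were not detectable at this depth. FASN and FADS1 were called in all 4 comparisons between groups, FASN lower and FADS1 higher each time.

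Other genes of sterol and fatty acid metabolism, on lists of 15, 16 and 31 genes, were read for context. Of 16 sterol-handling and oxysterol genes, TNF raised 5 and lowered 2, so 43.8% were called beside 30.5% of all genes. CYP7B1, which inactivates oxysterols, rose from 4.50 ± 0.489 to 96.6 ± 2.29 CPM (4.44 ± 0.11, adjusted p = 1.49e-15 in edgeR), a larger change than any of the 35 genes showed. It was at 40.4 ± 6.41 CPM with TNF + Tub B (−1.27 ± 0.08 against TNF, adjusted p = 2.60e-09). CH25H, which makes 25-hydroxycholesterol, an oxysterol that blocks SREBP release, rose from 0.707 ± 0.196 to 3.28 ± 0.103 CPM (2.26 ± 0.29, adjusted p = 6.87e-06). LIPA, the lysosomal lipase that frees cholesterol from esters, fell in all 4 comparisons between groups and was lowest with TNF + Tub B (52.9 ± 3.15 against 97.4 ± 4.72 CPM with TNF, −0.88 ± 0.07, adjusted p = 2.57e-08). Tub B alone raised 1 and lowered 1 of these 16 genes (12.5% beside 12.7% of all genes), and Tub B added to TNF raised 1 and lowered 3 (25% beside 20.2%).

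Of 14 tested genes of sterol enzymes and SREBP processing, 2 rose and 2 fell with TNF (28.6% called beside 30.5% of all genes), 2 rose with Tub B (14.3% beside 12.7%), and 2 rose with Tub B added to TNF (14.3% beside 20.2%). These shares lay near those of all genes. MSMO1, a sterol oxidase, rose with Tub B from 38.6 ± 2.32 to 48.7 ± 2.35 CPM (0.34 ± 0.06, adjusted p = 0.00156 in edgeR). Of 30 tested fatty acid genes, 10 rose and 9 fell with TNF (63.3% called beside 30.5% of all genes), 4 rose and 1 fell with Tub B (16.7% beside 12.7%), and 4 rose and 4 fell with Tub B added to TNF (26.7% beside 20.2%). ELOVL7, an elongase of very long chains, rose with TNF from 0.947 ± 0.335 to 6.37 ± 0.807 CPM (2.84 ± 0.22, adjusted p = 1.19e-08). PPARG, a receptor that promotes fat storage, fell with TNF from 5.41 ± 0.638 to 2.86 ± 0.0626 CPM (−0.93 ± 0.16, adjusted p = 0.000215). ME1, which supplies NADPH for fatty acid synthesis, rose with Tub B from 32.0 ± 0.00365 to 51.5 ± 0.557 CPM (0.69 ± 0.06, adjusted p = 1.03e-06) and also when Tub B was added to TNF (0.58 ± 0.07, adjusted p = 3.19e-06).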

How the data were processed

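The values used were raw gene counts deposited by the authors, 1 table with a column per library and 0 columns left unassigned. Per the labels' protocols the poly(A) libraries carry no strand information. STAR 2.7.0 and featureCounts (version not given in the sources used here) were used per the submitters' processing notes, which name builds mm10 and hg19 without a role, so no coordinates of the counted genes are given. Reads shared by overlapping genes cannot be assigned, and 16 of the 35 genes share exon bases with another gene in GENCODE v29.

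Columns were matched to samples by their descriptions and grouped by titles. In R 4.3.3, edgeR 4.0.16 (filterByExpr, TMM) was fitted to all 8 libraries with a coefficient for each group (residual degrees of freedom 4, prior 13.1), and calls were made at an adjusted p below 0.05. SE is the log2 fold change over the root of the F statistic. A floor of 3 counts was 0.0992 to 0.208 CPM. Alternatives were DESeq2 1.42.0 and its size factors, library totals, upper-quartile scaling, no filter, only the groups compared, a replicate block and leaving out each library. The steps were tested on simulated counts. The genes, lists and rules were chosen with earlier results of these data known. Values in every library are printed for HMGCS1 and for members called with a log2 fold change of at least 0.5 in either direction, and up to 4 called genes per other list and comparison could be named. Some genes of the pathway are not reported here.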

Additional observations from a re-analysis of the deposited data

Results flagged for a closer look

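The TNF response differed between cells with and without Tub B for 4 genes, by the interaction term in edgeR. The difference of log2 fold changes was −0.54 for HMGCS1, −0.49 for SQLE, −0.43 for INSIG1 and −0.65 for STARD4. Only the STARD4 call held in every setting tried. Those of HMGCS1, SQLE and INSIG1 were lost when some single libraries were left out. Groups of 2 libraries are too small to look for single samples that stand apart.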

How the results depend on the processing

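Of 51 calls over the 35 genes and 5 comparisons, 27 held in every alternative and 0 changed sign, while 20 of 124 values not called passed in some alternative. DESeq2 kept 41 of the 51. For TNF + Tub B against TNF it called 6 of the 35 genes, and over all genes it called 1345 for Tub B against mock and 421 for the interaction. Leaving out 1 library at a time gave 6 to 11 of the 35 genes for TNF + Tub B against TNF, 6 to 12 for Tub B against mock, 8 to 14 for TNF + Tub B against Tub B, 12 to 14 for TNF against mock and 1 to 5 for the interaction. Over all genes the ranges were 2024 to 3798, 715 to 2130, 2980 to 4792, 3493 to 4971 and 306 to 1328. Library totals changed the split of all genes in TNF + Tub B against TNF from 1184 higher and 2183 lower to 3431 and 1325, with a median shift to 0.115, and in TNF against mock from 2857 and 2220 to 2147 and 3474. In Tub B against mock the split went from 804 and 1316 to 1530 and 867, and in the interaction from 173 and 532 to 291 and 379. The cause was not tested. Correlations of replicate deviations over 16647 genes ran from −0.048 to 0.047, which does not settle whether replicate numbers pair the libraries. The fit with a replicate block kept 51 of 51 calls, with 15 of the 35 genes called for TNF against mock. It called 11 when Tub B was added to TNF, 12 for Tub B against mock, 12 when TNF was added to Tub B, and 4 for the interaction. Over all genes the block gave more calls in each comparison, 5368, 3656, 2492, 4671 and 914 in the same order. Without it the counts were 5077, 3367, 2120, 4397 and 705. With 2 libraries a group, small changes in low genes such as HSD17B7 were not detectable.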
